A study of Mus musculus with 6 samples.

Results

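The neuronal and synaptic genes are 44 mouse genes whose protein products build the neuron's cytoskeleton, its synaptic vesicles and their release machinery, its secretory granules, its postsynaptic signalling and its transmitter synthesis. They were listed by symbol, and every non-control probe of the arrays whose RefSeq identifier maps to 1 of the 44 symbols was taken. Of the 18753 genes that the arrays name, 42 of the 44 were among them, with 71 probes. No probe was named for Ina and Vgf, so their expression was not analysed here, though Ina has a promoter window. A gene was tested if 1 of its probes lay well above background on 3 or more of the 6 arrays, of either treatment, which held for 39 of the 42, against 14529 of all named genes. The cells were mouse embryonic stem cells of strain 129/Ola that had been differentiated in serum-free N2B27 medium and are labelled as day 3 cells. The DMSO group, 3 samples, had received the solvent DMSO for 24 h, and the TSA group, 3 samples, had received trichostatin A (TSA), which inhibits histone deacetylases, for 24 h; the dose is not in the labels. The samples are described as independent experiments, and each pair of a DMSO and a TSA sample shared 1 of 3 slides, with DMSO always at one position and TSA at the next, so that treatment cannot be told apart from position.

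In neurons, tau and MAP2 bind microtubules, neurofilaments set the calibre of axons, and kinesins carry cargo along them. At the synapse, SNARE proteins fuse vesicles with the membrane when synaptotagmin senses calcium, complexins hold the fusion machinery ready, and calmodulin-dependent kinase and neurogranin act on the receiving side. Many of these genes are known to be held silent outside neurons by REST, a repressor that binds the RE1 element and recruits histone deacetylases. N2B27 is a medium in which stem cells tend toward neural fates.

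Levels are log2 of the processed spot signal minus the 75th percentile of the array, so a level of 0 is the 75th percentile, and a difference is TSA minus DMSO on that scale. A level compares 1 gene between arrays and says nothing of 1 gene against another, since probes differ in brightness. The 75th percentile of the processed signal ran from 311 to 926 intensity units and the share of spots well above background from 61.1% to 72.3%. TSA replicate 2 was lowest in both, and its correlations with the other TSA arrays were 0.931 and 0.939, where the remaining pairs of like-treated arrays had 0.984 to 0.990. With 3 arrays per group, their number limits the precision. In bulk RNA, fewer cells of a type and less RNA per cell cannot be told apart.

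Promoter sequence was read for the neuronal and synaptic genes that had a listed window. Mapt and Camk2a, which rose, had none. In the RefSeq promoter table (GRCm38.p6; from 250 bases before a gene's start to 50 after), 32 of the 44 genes matched by symbol, with 43 windows. Searched were the RE1 element of REST, on both strands with at most 4 mismatches among its 19 fixed letters, the GC box GGGCGG, the E boxes CAGCTG and CAGATG, and the TATA box TATAAA, each on both strands; CAGCTG reads the same on both. An RE1 match lay in 2 of the 43 windows (4.65%), those of Syn1 and Gad2, against 0.228% of all 32851 windows. The Syn1 match had 2 mismatches and began 232 bases before the start, and the Gad2 match had 4 mismatches and began 166 bases before it. A GC box lay in 53.5% of the windows, against 35.7% of all, CAGCTG in 32.6% against 16.3%, CAGATG in 20.9% against 17.2%, and TATAAA in 14.0% against 13.6%. The median GC content was 59.3%, against 52.7%. These matches describe letters in a window, and binding was not measured. The 250 bases before the start are shown 5′ to 3′ for Nrgn and Synpr, 2 of the genes that rose, with the GC box in capitals (as its reverse complement), for Dcx, whose level was lower in TSA, with the TATA box in capitals, and for Gad2 and Syn1 with the RE1 match in capitals. Synpr and Dcx have 2 windows each, of which the first is shown.
Nrgn, chr9:37552746-37552995, - strand: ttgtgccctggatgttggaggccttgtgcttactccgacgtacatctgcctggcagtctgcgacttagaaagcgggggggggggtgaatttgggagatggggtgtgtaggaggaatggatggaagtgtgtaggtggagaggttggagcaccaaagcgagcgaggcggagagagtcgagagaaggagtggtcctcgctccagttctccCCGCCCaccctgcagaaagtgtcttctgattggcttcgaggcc
Synpr, chr14:13284530-13284779, + strand: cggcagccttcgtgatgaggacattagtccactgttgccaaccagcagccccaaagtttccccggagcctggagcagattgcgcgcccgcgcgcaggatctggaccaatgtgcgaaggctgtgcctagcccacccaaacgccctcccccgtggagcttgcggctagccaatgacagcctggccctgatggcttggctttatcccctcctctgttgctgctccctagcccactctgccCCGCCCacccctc
Dcx, chrX:143933220-143933469, - strand: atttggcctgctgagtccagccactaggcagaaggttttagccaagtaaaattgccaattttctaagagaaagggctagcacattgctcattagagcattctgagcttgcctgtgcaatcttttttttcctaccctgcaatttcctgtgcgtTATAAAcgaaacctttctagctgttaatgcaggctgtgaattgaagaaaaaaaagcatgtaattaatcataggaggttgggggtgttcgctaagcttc
Gad2, chr2:22622077-22622326, + strand: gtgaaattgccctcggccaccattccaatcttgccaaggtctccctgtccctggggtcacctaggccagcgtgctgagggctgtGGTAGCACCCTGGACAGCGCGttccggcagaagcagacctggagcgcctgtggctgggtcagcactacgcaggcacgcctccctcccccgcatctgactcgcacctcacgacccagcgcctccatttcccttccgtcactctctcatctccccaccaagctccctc
Syn1, chrX:20920919-20921168, - strand: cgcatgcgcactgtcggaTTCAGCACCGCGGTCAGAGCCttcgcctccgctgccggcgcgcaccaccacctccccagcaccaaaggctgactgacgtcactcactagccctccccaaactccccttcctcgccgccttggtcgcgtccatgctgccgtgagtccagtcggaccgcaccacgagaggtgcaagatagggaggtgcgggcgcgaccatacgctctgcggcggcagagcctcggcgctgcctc

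Most of the neuronal genes were already measurable without TSA. Judged by its brightest probe, tested or not, 35 of the 42 genes (83.3%) lay well above background on all 3 DMSO arrays, against 73.2% of all named genes, 3 lay above it on 1 or 2 DMSO arrays (Syn2, Dlg4 and Gad1), and 4 on 0 (Synpr, Rab3c, Snap25 and Scg2). Counting any probe of a gene, 36 lay above background on all 3 DMSO arrays. By the brightest probe, 33 (78.6%) lay above background on all 3 TSA arrays, against 72.4% of all named genes, and 3 on 0, among them Dlg4, whose tested probe is another. Snap25, a SNARE protein of the plasma membrane, and Scg2, a granule protein, were not well above background on any array, and each of the 2 probes of Rab3c, a vesicle GTPase, was so on 1 TSA array, so these 3 genes were not tested.

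In TSA, 4 of the 39 tested genes rose and 0 fell: Nrgn, Camk2a, Mapt and Synpr (limma, Benjamini-Hochberg over all tested probes, adjusted p under 0.05). Over all tested genes 1.36% rose and 0.0551% fell, 1.41% in all. At an unadjusted p under 0.05 there were 11 of the 39 genes and 2167 of all tested genes, in either direction. Synpr entered the test only through its TSA arrays, so the filter kept it because it was high there. Of the 35 genes above background on all 3 DMSO arrays, 3 rose. The groups did not overlap for 9 genes that were higher in TSA and 4 that were lower (23.1% and 10.3% of the 39), against 16.4% and 8.29% of all tested genes. The 39 differences ran from -1.97 for Gad2 to 2.90 for Nrgn, with a median of 0.13, against a median of 0.08 over all tested genes. Their median size without sign was 0.44, against 0.30 over all tested genes. On slides 1, 2 and 3 the median was 0.13, 0.20 and 0.08, against -0.03, 0.30 and 0.03 over all tested genes, so on slide 2 it lay below that of all genes. With the slide as a block, the same 4 genes passed upward and 2 downward, Dcx and Gad2, 6 in all; of all tested genes 3.19% passed upward and 0.145% downward, 3.34% in all. The fitted mean was higher in TSA for 25 of the 39 genes, against 58.1% of all tested genes. On all 3 slides 16 were higher (41.0%) and 8 lower (20.5%), against 32.6% and 21.4%.

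**Figure D1:**
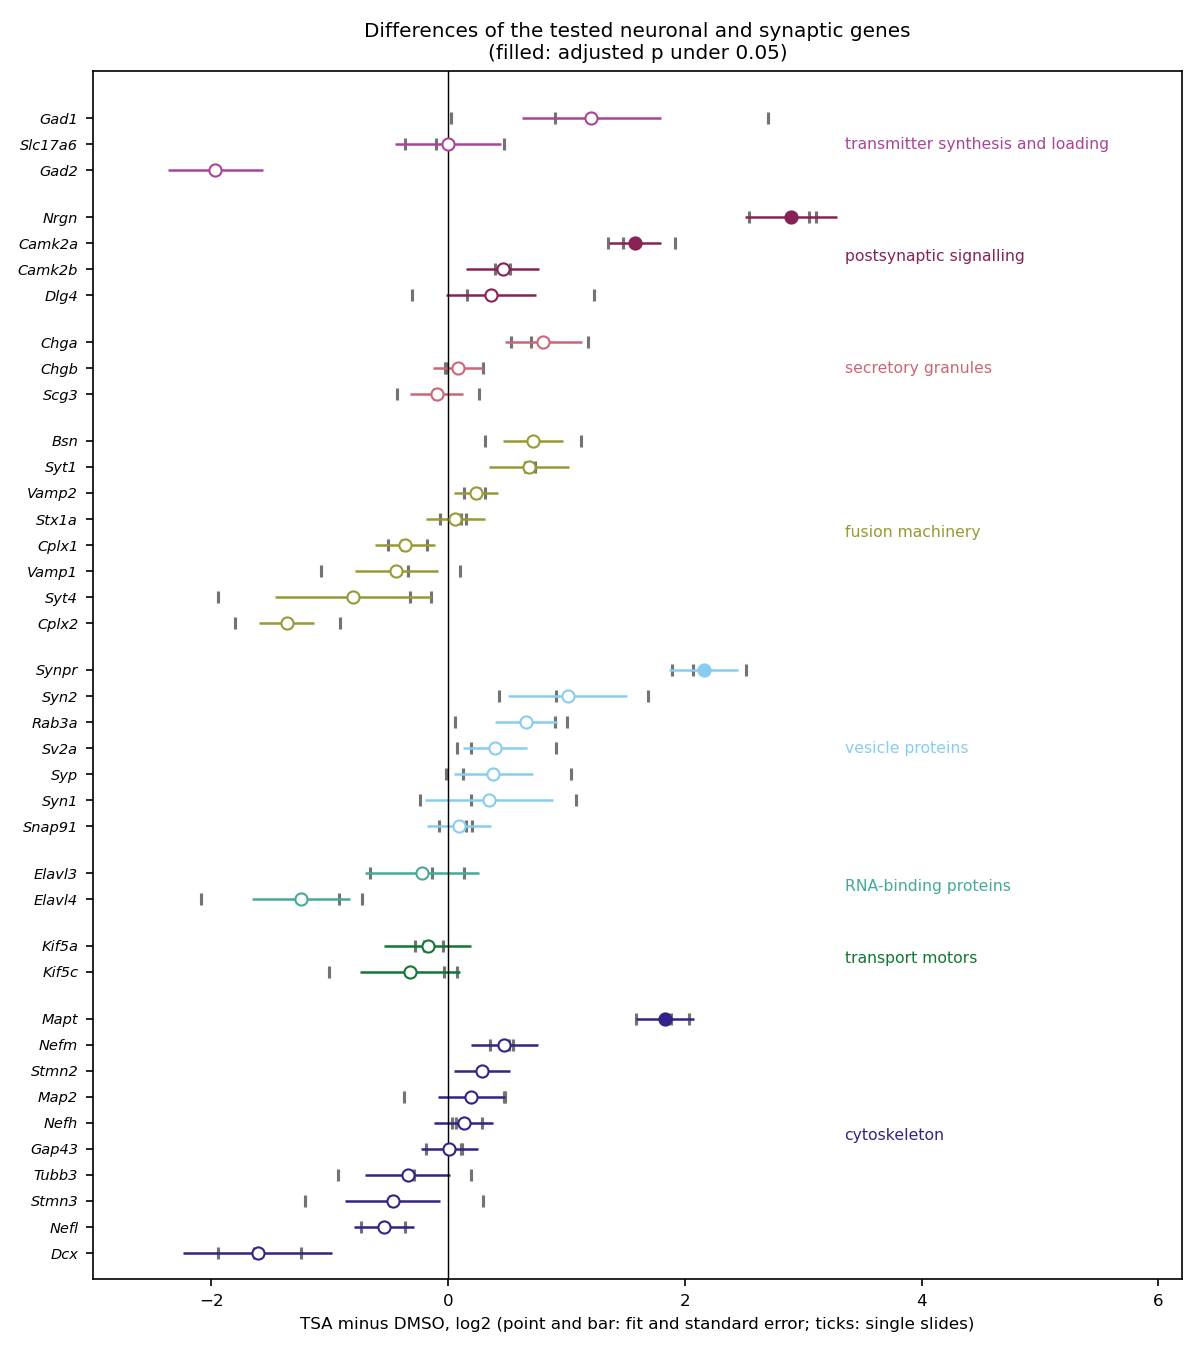
Differences (TSA minus DMSO, log2, x axis) of the 39 tested neuronal and synaptic genes, grouped by role; points and bars are the limma estimate and its standard error (3 arrays per group), grey ticks the 3 slides, and filled points passed the test. Nrgn, Synpr, Mapt and Camk2a lie to the right at 1.58 to 2.90, and Gad2, Dcx, Cplx2 and Elavl4 to the left at -1.97 to -1.24.

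By their tested probes, the postsynaptic genes were all higher in mean, and the 2 largest rose. Nrgn encodes neurogranin, which binds calmodulin at low calcium in dendrites. In DMSO replicates 1, 2 and 3 its level was -1.69, -1.19 and -1.97, and in TSA replicates 1, 2 and 3 it was 1.36, 1.91 and 0.57. Every TSA array lay above every DMSO array, and the rise was 2.90 ± 0.39 (7.45-fold, standard error, adjusted p = 0.0371). Camk2a, the alpha subunit of the calcium/calmodulin-dependent kinase of synapses, stood at -2.99, -2.67 and -2.90 in DMSO and at -1.07, -1.19 and -1.55 in TSA. It rose by 1.58 ± 0.22 (2.99-fold, adjusted p = 0.0389), without overlap between the groups. Camk2b, the beta subunit, gave 0.92, 0.52 and 0.17 in DMSO and 1.38, 1.04 and 0.57 in TSA, so the groups overlapped, although every slide was higher in TSA (0.46 ± 0.31, adjusted p = 0.618). The broadly expressed subunits Camk2d and Camk2g gave -0.16 ± 0.24 (adjusted p = 0.802) and 0.02 ± 0.18 (adjusted p = 0.976). Dlg4, the scaffold PSD-95, was above background on 2 DMSO arrays and 1 TSA array and gave 0.36 ± 0.38 (adjusted p = 0.721). Its brighter, untested probe was above background on 2 DMSO and 0 TSA arrays and was lower in TSA, by -0.12.

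Of the 10 tested cytoskeletal genes 1 rose, Mapt, and 1, Dcx, was lower when blocked by slide. Mapt, which encodes tau, stood at -4.42, -4.03 and -3.96 on the DMSO arrays and at -2.53, -2.00 and -2.37 on the TSA arrays. The groups were well apart, and Mapt rose by 1.84 ± 0.24 (3.57-fold, adjusted p = 0.0359). Dcx, the microtubule protein doublecortin of migrating young neurons, stood at -2.43, -3.98 and -4.56 in DMSO and at -4.37, -5.61 and -5.80 in TSA. Its differences on the 3 slides were -1.94, -1.64 and -1.24, and the groups overlapped, with TSA replicate 1 above DMSO replicate 3; slide 1 was the highest in both treatments. The difference was -1.61 ± 0.63 (adjusted p = 0.383), and it passed only when blocked by slide (adjusted p = 0.0425). TSA had Dcx above background on 2 of its 3 arrays. In TSA replicate 2 it lay below the dimmest signal still well above background, -4.86. The slide 2 difference and the blocked p therefore rest partly on a signal near background. Map2, the microtubule protein of dendrites, gave 0.19 ± 0.28 (adjusted p = 0.794), and Tubb3, the tubulin used as a marker of young neurons, -0.34 ± 0.36 (adjusted p = 0.719). For Tubb3 the levels were 1.70, 1.62 and 1.08 in DMSO and 0.77, 1.82 and 0.79 in TSA, with the second slide turned against the other two. Stmn2 and Stmn3, which destabilise microtubules, gave 0.29 ± 0.23 and -0.47 ± 0.40 (adjusted p = 0.668 and 0.676), and Gap43, a growth cone protein, 0.01 ± 0.24 (adjusted p = 0.986). The neurofilament genes had differences of -0.54 ± 0.25 (Nefl, adjusted p = 0.485), 0.48 ± 0.28 (Nefm, adjusted p = 0.588) and 0.13 ± 0.25 (Nefh, adjusted p = 0.841). Nefl was 2.38, 2.47 and 2.13 in DMSO and 1.85, 2.11 and 1.39 in TSA, so every TSA array lay below every DMSO array without the difference passing.

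**Figure D2:**
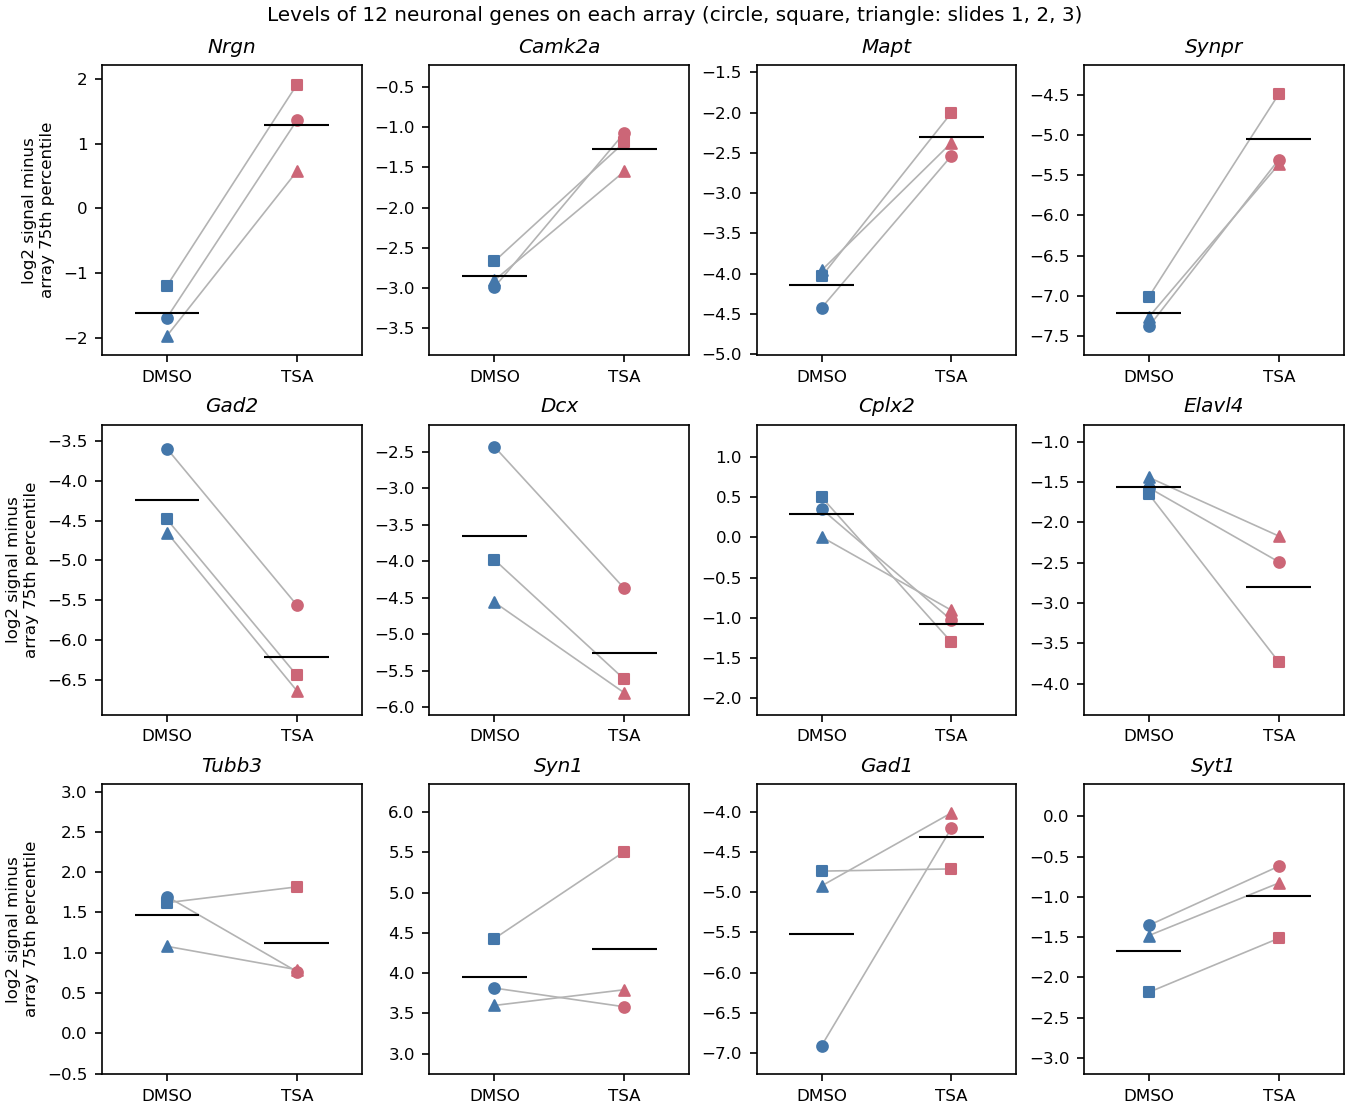
Levels of 12 neuronal genes on each array (log2 signal minus the array's 75th percentile, y axis) in DMSO and TSA; circles, squares and triangles are slides 1, 2 and 3, grey lines join the arrays of a slide and black bars are group means. The groups are apart in the top row (Nrgn, Camk2a, Mapt and Synpr, higher in TSA), while the grey lines of Dcx span -1.94 to -1.24 and its groups overlap.

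The 7 tested vesicle proteins all had a fitted difference above 0, against 58.1% of all tested genes, and 1 rose. That 1 was Synpr, which the filter kept only because it was high in TSA, so its sign adds nothing to the count. Their median was 0.40, and on slides 1, 2 and 3 it was 0.21, 1.01 and 0.19. Synpr encodes synaptoporin, a membrane protein of synaptic vesicles. Its DMSO level was -7.38, -7.01 and -7.26, in no replicate well above background, and its TSA level -5.31, -4.49 and -5.37, above background each time. Synpr rose (adjusted p = 0.0373), and the size can be given only as at least 2.04-fold, since each DMSO array counts at its detection limit, the dimmest signal that was still well above background, or at the gene's own signal if brighter. Synpr lay below that limit in every DMSO replicate, so its adjusted p rests partly on signals near background. Syp, its close relative synaptophysin, stood at -3.71, -3.49 and -3.38 in DMSO and at -3.58, -2.45 and -3.39 in TSA, where slide 2 differed by 1.04 and the others by 0.13 and -0.01 (0.38 ± 0.33, adjusted p = 0.679). Syn1, a synapsin that tethers vesicles, was 3.81, 4.43 and 3.60 in DMSO and 3.58, 5.51 and 3.79 in TSA. Its difference of 0.35 ± 0.54 (adjusted p = 0.807) was 1.08 on slide 2, and it was -0.26 without TSA replicate 2. Syn2, another synapsin, gave 1.01 ± 0.50 (adjusted p = 0.515), higher on each slide, with 2 DMSO arrays above background. Rab3a, a GTPase of vesicle release, gave -1.38, -1.17 and -0.98 in DMSO and -0.47, -0.16 and -0.91 in TSA, a narrow separation that did not pass (0.66 ± 0.26, adjusted p = 0.390). Sv2a, a vesicle glycoprotein, and Snap91, a clathrin adaptor, gave 0.40 ± 0.27 and 0.10 ± 0.27 (adjusted p = 0.626 and 0.897).

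The fusion machinery showed differences in both directions, and 0 of its 8 tested genes passed in limma (2 at an unadjusted p under 0.05). Cplx2, a complexin, stood at 0.35, 0.50 and 0.01 on the DMSO arrays and at -1.03, -1.30 and -0.91 on the TSA arrays. The groups did not overlap, yet the difference of -1.36 ± 0.23 (2.57-fold higher in DMSO) missed the threshold narrowly (adjusted p = 0.0577; blocked by slide, 0.0625). Cplx1, another complexin, gave -0.36 ± 0.25 (adjusted p = 0.631). Syt1, the calcium sensor of fast release, gave -1.35, -2.18 and -1.48 in DMSO and -0.62, -1.52 and -0.83 in TSA, a shift of 0.65 to 0.73 on every slide (0.68 ± 0.34, adjusted p = 0.515, and 0.125 with the block). Syt4, another synaptotagmin, gave -0.80 ± 0.66 (adjusted p = 0.670), of which slide 2 held -1.94 and the others -0.14 and -0.32. In TSA replicate 2 the Syt4 level, -5.95, lay below the dimmest signal still well above background, -4.86. Bsn, the scaffold bassoon of the active zone, gave 0.72 ± 0.25 (adjusted p = 0.314), with its TSA arrays all above its DMSO arrays. The SNARE genes Stx1a, Vamp1 and Vamp2 gave 0.06 ± 0.25, -0.44 ± 0.35 and 0.23 ± 0.18 (adjusted p = 0.928, 0.665 and 0.661).

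Of the 3 tested genes of transmitter synthesis and loading 0 passed in limma (1 at an unadjusted p under 0.05), and 1, Gad2, was lower when blocked by slide. Gad2, which makes the inhibitory transmitter GABA, stood at -3.60, -4.48 and -4.65 on the DMSO arrays and at -5.56, -6.44 and -6.63 on the TSA arrays. Each slide gave nearly the same difference, -1.96, -1.96 and -1.98, and the groups did not overlap. Without a slide term the difference of -1.97 ± 0.40 did not pass (adjusted p = 0.0903), and blocked by slide it did (adjusted p = 0.0311). In TSA this probe was above background on 1 of 3 arrays, replicate 1, so no fold is given. In TSA replicates 2 and 3 it lay below the dimmest signal still well above background, -4.86 and -6.01. The likeness of the slides and the blocked p therefore rest partly on signals near background. Gad1, the other GABA-making enzyme, stood at -6.90, -4.74 and -4.92 in DMSO and at -4.20, -4.71 and -4.01 in TSA. Its difference of 1.21 ± 0.59 (adjusted p = 0.506) was 2.70 on slide 1 but 0.03 on slide 2, and the groups only just failed to overlap. Gad1 was above background on 2 arrays of each group. In DMSO replicate 1 it lay below the dimmest signal still well above background, -5.67, so the slide 1 difference rests partly on a signal near background. Slc17a6, a vesicular glutamate transporter, gave 0.0035 ± 0.45 (adjusted p = 0.998). Outside the 44 genes, Slc32a1, which loads GABA into vesicles, differed by 1.81 ± 0.32 (adjusted p = 0.0641; blocked by slide, 0.0407). Slc17a7, another glutamate transporter, was detected in 0 DMSO and 3 TSA replicates, a difference of at least 2.27-fold toward TSA (adjusted p = 0.0715; blocked by slide, 0.0349), and like Synpr it entered the test only through its TSA arrays.

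The remaining roles held no gene that passed. The kinesins Kif5a and Kif5c gave -0.17 ± 0.37 and -0.32 ± 0.42 (adjusted p = 0.862 and 0.772), and Kif5b, their broadly expressed relative, -1.12 ± 0.69 (adjusted p = 0.599). Kif5c stood at 2.67, 2.17 and 2.38 in DMSO and at 2.64, 1.16 and 2.46 in TSA, so TSA replicate 2 alone was low, and without it the difference was 0.14. Elavl4, an RNA-binding protein of neurons, was -1.57, -1.65 and -1.44 in DMSO and -2.49, -3.73 and -2.17 in TSA. Every TSA array was lower, most on slide 2, and the difference of -1.24 ± 0.41 did not pass (adjusted p = 0.281, and 0.129 with the block); without TSA replicate 2 it was -0.78 (adjusted p = 0.0858). Elavl3, its relative, gave -0.22 ± 0.49 (adjusted p = 0.868), and the broadly expressed Elavl1 0.04 ± 0.26 (adjusted p = 0.954). Of the granule proteins, Chga (chromogranin A) stood at -0.29, -0.18 and -0.72 in DMSO and at 0.24, 1.00 and -0.02 in TSA, without overlap and without passing (0.81 ± 0.32, adjusted p = 0.397). Chgb and Scg3 gave 0.08 ± 0.21 and -0.09 ± 0.22 (adjusted p = 0.883 and 0.877).

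Genes with several probes show how far a value rests on the probe chosen, which was a gene's brightest tested probe, by its mean over the 6 arrays. All 3 probes of Mapt were higher in TSA, by 1.22, 1.84 and 1.93, and the smallest of these did not pass (adjusted p = 0.0774). The 3 tested probes of Syt1 gave 0.68, 0.68 and 0.69. The other probe of Gad2 was detected in 3 DMSO and 0 TSA replicates and was at least 1.82-fold higher in DMSO (adjusted p = 0.0389). It entered the test only through its DMSO arrays, so its passing is no separate support for the gene. The probes of Cplx2 disagreed, with tested values of -1.36, -0.92 and 0.25, and so did those of Elavl4, with -1.24 and 0.03. For Camk2a the other probe lay above background on 0 of 6 arrays, so its rise rests on 1 probe, as do those of Nrgn and Synpr, which have only 1. Dcx also had 1 tested probe. Its untested probes, above background on 1 and 0 DMSO arrays and on 0 TSA arrays, differed by -1.26 and 0.57.

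**Figure D3:**
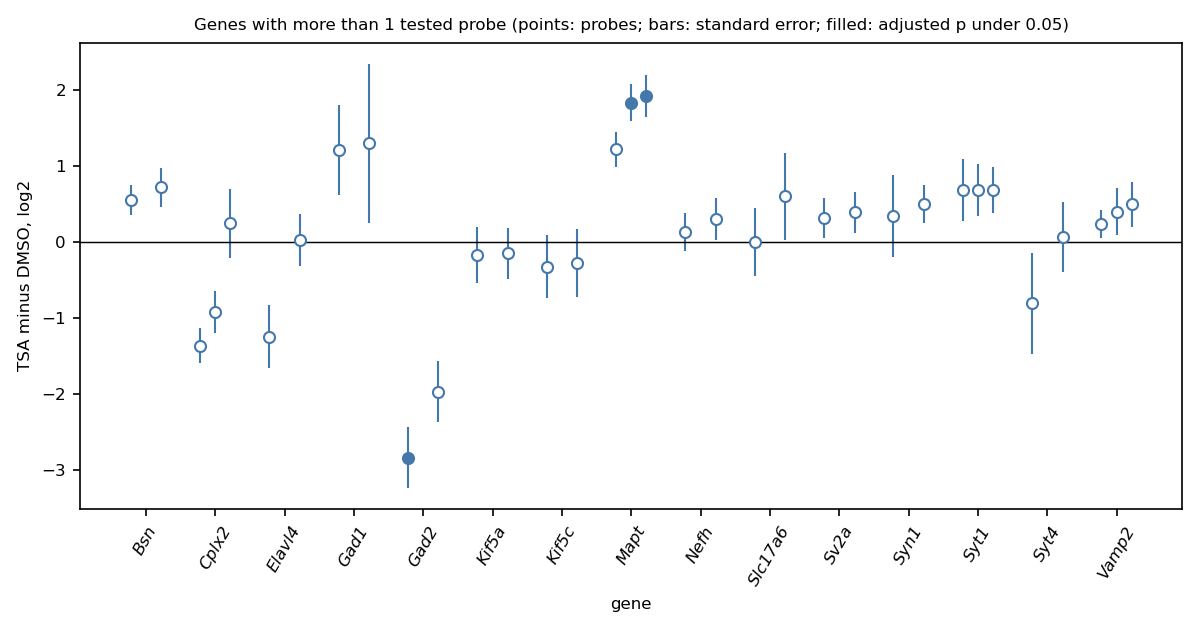
Differences (TSA minus DMSO, log2, y axis) of each tested probe of the 15 genes with more than 1 tested probe; bars are standard errors (3 arrays per group) and filled points passed the test. The 3 Mapt probes lie at 1.22 to 1.93 and the Gad2 probes at -2.83 (not above background in TSA) and -1.97, while the Cplx2 probes spread from -1.36 to 0.25.

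The 4 rises depended on the set of arrays. Leaving out DMSO replicate 1, 2 or 3 or TSA replicate 1 or 3 ended all of them, with adjusted p between 0.0614 and 0.195 for Nrgn, 0.0942 and 0.192 for Mapt, 0.0805 and 0.213 for Camk2a, and 0.0799 and 0.199 for Synpr, while the differences of Nrgn, Mapt and Camk2a stayed at 2.72 to 3.25, 1.69 to 1.95 and 1.48 to 1.72. No gene of the array passed in those fits. Without TSA replicate 2, the dimmest array, all 4 passed (adjusted p = 0.0272, 0.0242, 0.0294 and 0.0170) and Cplx2 fell by 1.25 (adjusted p = 0.0404). Nrgn also passed in the authors' deposited values and with quantile normalization or median centring, where the other 3 had adjusted p from 0.0506 to 0.158 in limma. With normexp background correction followed by quantile normalization Nrgn passed, and Mapt, Camk2a and Synpr gave 0.76, 0.95 and 0.30 (adjusted p = 0.0931, 0.0522 and 0.345). The bound for Synpr is on the processed signal, and its fitted differences of 0.30 with normexp and 0.80 in the authors' deposited table lie below it. Dcx and Gad2, lower with the slide block, shrank too, in limma fits without the block. With normexp they gave -0.54 and -0.51 (adjusted p = 0.459 and 0.240). In the authors' deposited table they gave -1.06 and -1.14 (adjusted p = 0.458 and 0.143).

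Further genes of neurons were read from 4 related lists. Together, 17 of 115 tested genes had an unadjusted p under 0.05 in limma, against 2167 of all 14529 tested genes. After adjustment 0 passed, against 1.41% of all tested genes. Of 35 proneural and neuronal transcription factors, 23 were tested, 0 rose or fell, and the median was 0.02; 9 lay above background on no array, Tbr1, Neurod6 and Myt1 among them. Neurog2, a proneural factor of the cortex and spinal cord, stood at -5.97, -5.91 and -5.93 in DMSO and at -4.82, -4.87 and -5.06 in TSA, a tight shift at the edge of background that did not pass (1.02 ± 0.19, adjusted p = 0.0715). The related factors Neurog1 and Neurod1 gave 0.53 ± 0.55 and -0.64 ± 0.71 (adjusted p = 0.715 and 0.734). Isl1, a factor of motor and sensory neurons, gave 1.41 ± 0.65 (adjusted p = 0.483) and was the 1 gene of this list that passed when blocked by slide (adjusted p = 0.0393). Of 13 tested genes of the REST complex, 0 rose or fell with and without the block, 0 had an unadjusted p under 0.05 in limma, and the median was -0.18. Rest itself gave -0.08 ± 0.26 (adjusted p = 0.907), and its corepressors Rcor1 and Rcor2 -0.28 ± 0.27 and 0.01 ± 0.37 (adjusted p = 0.702 and 0.991).

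Of 48 tested paralogs of the neuronal genes, 0 rose or fell, the median was 0.08, and 4 passed upward with the slide as a block: Slc17a7, Slc32a1, Rab3b and Syt12. Rab3b, a relative of Rab3a, stood at -1.85, -1.08 and -1.10 in DMSO and at 0.24, 1.65 and 0.34 in TSA (2.09 ± 0.44, adjusted p = 0.0969, and 0.0441 with the block). Syt12, a synaptotagmin relative, gave 1.31 ± 0.31 (adjusted p = 0.132, and 0.0497 with the block), and Pcp4, a calmodulin regulator like Nrgn, 1.63 ± 0.33 (adjusted p = 0.0896). Of broadly expressed relatives, values are given for 4 more: Stmn1 0.20 ± 0.22, Tubb5 0.06 ± 0.39, Snap23 -0.70 ± 0.35 and Map1b -0.67 ± 0.46 (adjusted p = 0.726, 0.955, 0.519 and 0.627). Of 31 tested ion channels and transmitter receptors, 0 rose or fell, with a median of 0.22. Kcnc1, a potassium channel of fast-firing neurons, passed with the block (1.51 ± 0.47, adjusted p = 0.247, and 0.0448 with it). Glra1, a glycine receptor, was detected in 3 DMSO and 0 TSA replicates, at least 1.14-fold toward DMSO (adjusted p = 0.125). It entered the test only through its DMSO arrays, where it was high. Of the 44 named channel and receptor genes 12 lay above background on no array, among them Gria2 and Grin2a.

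**Figure D4:**
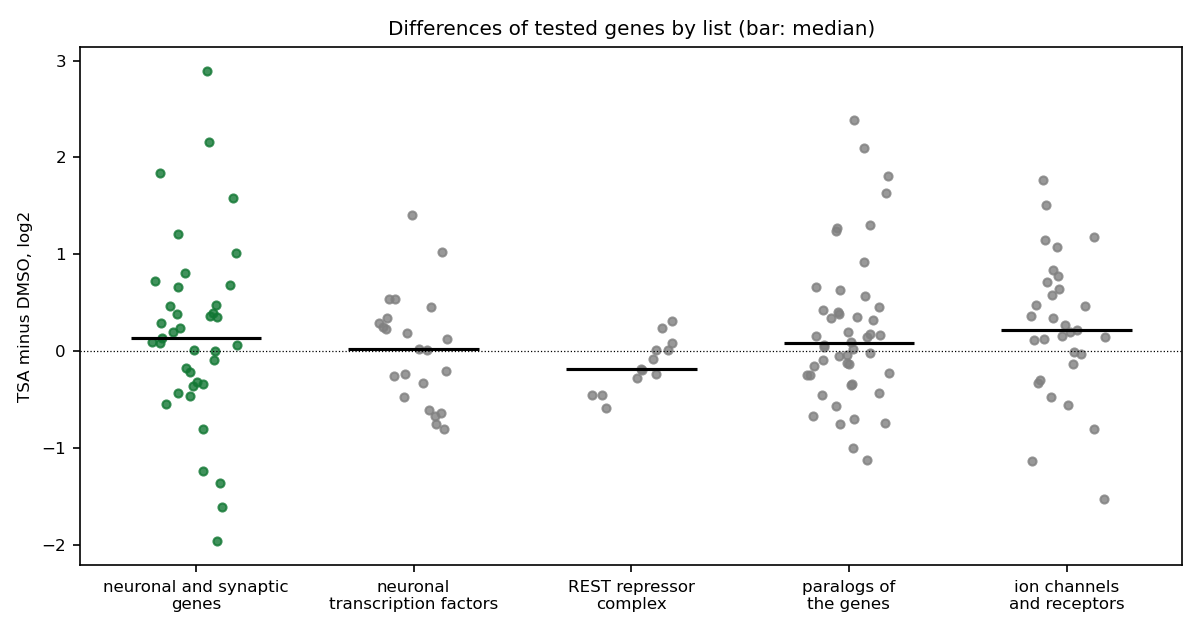
Differences (TSA minus DMSO, log2, y axis) of the tested genes in the 39 neuronal and synaptic genes, 23 neuronal transcription factors, 13 genes of the REST complex, 48 paralogs and 31 ion channels and receptors; points are genes and bars medians. All medians lie between -0.18 and 0.22, and the neuronal and synaptic genes run from -1.97 to 2.90.

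Markers of other cell types that the cultures could hold were read on the same arrays. Of 7 tested neural progenitor markers 0 rose or fell, and their mean level was -0.87 to -0.47 on the DMSO arrays and -1.13 to -0.86 on the TSA arrays. Pax6 gave -1.21 ± 0.24 (adjusted p = 0.0816). Of 8 tested mesendoderm markers 0 rose or fell, although 3 passed upward with the slide as a block, and their mean level was -2.25 to 0.21 in DMSO and -0.63 to 1.86 in TSA. Of 6 tested neural crest and peripheral markers 1 rose, Sox10 (2.15 ± 0.28, adjusted p = 0.0333), and the mean level was -3.12 to -2.84 in DMSO and -2.60 to -1.87 in TSA. The 5 tested astrocyte markers had mean levels of -3.71 to -3.53 in DMSO and -3.11 to -2.71 in TSA with 0 passing, and Gjb6 was above background on no array. The 4 tested oligodendrocyte markers lay at -1.20 to -0.91 in DMSO and -1.34 to -0.91 in TSA, with Olig2 and Mog above background on no array. The 8 pluripotency and epiblast markers lay at 2.01 to 2.20 and 2.16 to 2.42, and the 4 tested endocrine markers at -2.02 to -1.73 and -1.99 to -1.33, with Pax4, Gcg and Sst above background on no array. The part of these cell types in the rises of Nrgn, Camk2a, Mapt and Synpr was not tested.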

How the data were processed

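RNA from 6 samples was hybridised to single-colour (Cy3) Agilent arrays. Per the file headers, the deposited intensity values are processed spot signals that Agilent Feature Extraction (version 10.7 in the submitters' processing notes) background-subtracted and detrended within each array, with no scaling between arrays. The authors' deposited series table holds log2 values whose normalization is not given in the sources used here; it correlates at 0.982 to 0.992 with log2 of the processed signal and served as an alternative.

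After removal of controls and of the 57 to 84 spots that each array flagged as outliers, log2 was taken, the array's 75th percentile subtracted, and repeat spots averaged. Of 41174 probes, 27484 had 1 gene through RefSeq identifiers or symbols (reference GRCm38.p6), 0 had several and 13690 were unnamed. The array annotation follows another build, so no gene positions are given. The 28158 probes above background on at least 3 arrays were tested with limma 3.58.1 in R 4.3.3 (lmFit and eBayes, two-sided, treatment only, Benjamini-Hochberg over all probes, threshold 0.05); 21 of them were fitted with 1 array missing. The test was tried on simulated data. The p-values reflect only the variation between these 6 samples, described as independent experiments. Deviations from the group means correlated at 0.484, 0.614 and 0.585 for the arrays of 1 slide, and at -0.568 to 0.0916 across slides. Same-numbered samples are therefore treated as pairs where the block is used.

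Members, lists and tests were chosen with earlier results of these data known. Values on every array are given for members past the threshold without or with the slide block, for members above background on all arrays of 1 group and 0 of the other, for the 6 largest differences among members above background on all 6 arrays, and for at least 1 member of each role. Of the related lists, the rule names a fixed set and up to 4 genes each with the smallest adjusted p, not all of which are printed, and the values of some are not reported here; Isl1, Kcnc1, Pax6, Sox10, other members with values on every array, and genes named as above background on no array were chosen after their values were seen. Alternatives were the slide block, 4 other normalizations, 2 filters, trended moderation, outlier spots kept, the mean over probes, array weights, each array or slide 2 left out, and each slide alone. Normexp used an offset of 50 on median spot signals, in place of the processed signals, and was followed by quantile normalization.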

Additional observations from a re-analysis of the deposited data

How the results depend on the processing

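With 3 arrays a group, 4 neuronal genes rose and 0 fell, and alternatives moved that count. With the slide as a replicate block, 4 were higher and 2 lower (Dcx and Gad2), and 6 genes of the related lists were higher, where the fit without it had 0. Array weights gave 2 lower and 13 genes of the related lists, where 962 of all genes were higher and 170 lower, against 197 and 8. An intensity trend with robust moderation gave 3, without Synpr (adjusted p = 0.0704), where 148 of all genes were higher and 8 lower. Normexp gave 2 in all, 1 higher and 1 lower, where 108 of all genes were higher and 12 lower. The authors' table, median centring and quantile normalization each gave 1, higher, which was Nrgn. In these fits 114, 104 and 115 of all genes were higher, and 7, 5 and 6 lower. No filter gave 0 and leaving out both arrays of slide 2 gave 0, with 9 and 12 members at an unadjusted p under 0.05 in limma (2323 of 18753 and 3005 of 14523 genes), while Nrgn stayed at 2.90 and 2.79. The filter on all 6 arrays, which leaves Synpr, Dcx and Gad2 untested, gave 3 higher and 1 lower. With that filter, 201 of all genes were higher and 9 lower. The mean over probes gave 4 higher and 1 lower, and 4 genes of the related lists. With that mean, 465 of all genes were higher and 25 lower. Leaving out 1 array gave 0 to 5 members, 0 to 4 higher and 0 to 1 lower, and 0 to 6 genes of the related lists. Of all genes, 0 to 431 were then higher and 0 to 29 lower, the most without TSA replicate 2. The median difference of 0.13 became 0.024 with normexp, 0.050 with median centring, 0.20 on slide 2 alone and 0.22 with the mean over probes, and 0.026 to 0.25 without 1 array. It lay below the median of all genes with normexp (0.034), without a filter (0.099 against 0.17), on slide 2 alone (0.30) and without TSA replicate 1 (0.026 against 0.16). Kif5c, -0.32, turned to 0.074 with array weights, 0.14 without TSA replicate 2 and 0.022 without slide 2, and Syn1, 0.35, to -0.17, -0.26 and -0.019; without 1 array they ranged from -0.60 to 0.14 and from -0.26 to 0.70. Of 195 tested alternative values of 11 members, 140 kept their direction and side of the threshold, 41 lost the threshold, 8 gained it and 6 reversed. All 41 losses were of Nrgn, Mapt, Camk2a and Synpr, since only a member past the threshold could lose it. Apart from the fits without 1 array, Nrgn passed in 10 of 12 tested alternatives, Mapt and Camk2a in 6 of 12 each, and Synpr in 4 of 11. Of 33 values of a slide alone, with no test, 2 had the opposite sign (Syn1 on slide 1, -0.23, and Kif5c on slide 3, 0.076). The causes were not tested. Signal over background limits Synpr in DMSO and the second Gad2 probe in TSA to bounds.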
